A study of Mus musculus with 6 samples.

Results

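Fibrillar collagens are the rope-like proteins that bear tension in connective tissue, and the 10 chain genes described here are Col1a1, Col1a2, Col3a1, Col5a1, Col5a2, Col5a3, Col2a1, Col11a1, Col11a2 and Col27a1. They were taken as the probe sets whose only gene symbol in the array's annotation is one of these names. All 10 were measured, by 20 probe sets, among 18193 genes tested with no filter on dim signals, and 8 of them had more than 1 probe set. The arrays compared were 3 of bladder mesenchyme (replicates 1, 2 and 4) and 3 of bladder urothelium, the epithelial lining (replicates 5, 7 and 8). All came from wild-type FVB/N mouse embryos of unrecorded sex at embryonic day 13, Theiler stage 21, and carried no transgene or treatment by their labels. Both tissues had been through 20 minutes in 20 µM EDTA, a chelator that loosens epithelium from stroma, before they were parted with a needle. Their RNA went through 2 rounds of amplification before it was hybridised to Affymetrix MOE430 arrays. The samples are labelled as not pooled, but no label says that replicates came from separate litters or embryos, so each p-value rests on a spread between samples that may be technical only.

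A fibrillar collagen is made as a procollagen in which 3 chains wind into a triple helix, flanked by propeptides at both ends. Inside the cell prolines and lysines of the chains are hydroxylated and chaperones hold the helix. Outside it proteases cut the propeptides off, the molecules pack into fibrils, and lysyl oxidases cross-link them. Type I collagen, built from the products of Col1a1 and Col1a2, and type III, built from Col3a1 alone, make up most of the fibrils of the bladder wall. Type V chains start the fibrils of soft tissue and limit their width, and type XI chains do this in cartilage, where type II is the main collagen.

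Signals are the deposited array intensities, already scaled to a common trimmed mean of 1500 on every array. The median signal was 161 to 239.7 on the mesenchyme arrays and 132 to 192 on the urothelium arrays. Mesenchyme 1 and urothelium 5 stand apart from their groups. Their ratios of 3′ to 5′ beta-actin signal were 8.40 and 8.60, against 2.37 and 3.94 on the other mesenchyme arrays and 4.89 and 2.29 on the other urothelium arrays, while the same ratio for Gapdh was 11.5 and 26.3 on those arrays and 9.77 to 15.7 on the rest. The labelled compartments carried their markers. Of 11 mesenchymal markers 10 were higher in mesenchyme, and their summed signal was 155453 to 186586 in mesenchyme and 5303 to 8491 in urothelium. Of 15 epithelial markers 14 were higher in urothelium, with a summed signal of 9765 to 13221.5 in mesenchyme and 504907 to 566551 in urothelium. In tissue of many cells, fewer cells of a type and less RNA per cell cannot be told apart. The number of arrays limits the precision of every value.

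Promoter sequences were found for 7 of the 10 genes in RefSeq's table of assembly GRCm38.p6. Those of Col1a2, Col3a1 and Col5a1 are shown because these chains differed strongly between the compartments, and that of Col11a1 because it did not pass the test. Each window lies on the plus strand and ends at the base before the gene's annotated start. Capitals mark matches, on either strand, to CCAAT (the box bound by NF-Y), GGGCGG (the GC box) and TATAAA (the TATA box), and no matches overlap.
Col1a2, chr6:4505368-4505617: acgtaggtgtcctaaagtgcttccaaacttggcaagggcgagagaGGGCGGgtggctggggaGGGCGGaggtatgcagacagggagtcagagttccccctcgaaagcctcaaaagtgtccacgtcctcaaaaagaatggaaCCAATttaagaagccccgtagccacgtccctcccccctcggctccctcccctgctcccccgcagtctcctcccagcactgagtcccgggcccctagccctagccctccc
Col3a1, chr1:45311288-45311537: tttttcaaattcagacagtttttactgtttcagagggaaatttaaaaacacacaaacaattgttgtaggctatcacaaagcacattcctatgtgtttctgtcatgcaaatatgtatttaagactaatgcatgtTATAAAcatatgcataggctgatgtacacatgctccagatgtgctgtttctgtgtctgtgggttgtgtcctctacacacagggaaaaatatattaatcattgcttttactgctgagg
Col5a1, chr2:27886175-27886380: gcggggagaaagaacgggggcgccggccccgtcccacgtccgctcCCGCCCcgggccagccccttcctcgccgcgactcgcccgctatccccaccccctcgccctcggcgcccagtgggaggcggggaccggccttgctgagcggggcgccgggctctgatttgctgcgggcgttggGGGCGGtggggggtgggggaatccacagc
Col11a1, chr3:114030290-114030478: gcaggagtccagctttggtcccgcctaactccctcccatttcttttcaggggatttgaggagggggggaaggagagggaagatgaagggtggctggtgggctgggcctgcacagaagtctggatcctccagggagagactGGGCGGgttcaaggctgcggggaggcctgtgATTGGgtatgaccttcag

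The 4 windows do not share a motif. Col1a2 had 2 GC boxes and 1 CCAAT, Col5a1 had 2 GC boxes, Col3a1 had only a TATAAA, and Col11a1 had 1 GC box and 1 CCAAT. Counted from the annotated gene start, the GC boxes of Col1a2 began at −205 and −188 and its CCAAT at −109. The GC boxes of Col5a1 began at −161 and −29, and the TATAAA of Col3a1 at −117. For Col11a1 the GC box began at −49 and the CCAAT at −18. Whether any match acts as a promoter element was not tested. Over all 32851 promoters, the first 250 bases of each sequence held CCAAT in 33.8%, GGGCGG in 32.7% and TATAAA in 12.4%. For the first 206 bases, the length of the Col5a1 window, these shares were 29.3%, 25.8% and 9.4%. For the first 189 bases, the length of the Col11a1 window, they were 26.5%, 22.6% and 8.7%. These stretches were not cut at each gene's own start. They match the windows in length but need not match them in distance from the gene start. The 10 genes lie on 9 chromosomes. Only Col3a1 and Col5a2 share one, chromosome 1, where the same assembly lists 0 genes between them.

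Both chains of type I collagen, type III and the main chains of type V were higher in mesenchyme, and the chains known best from cartilage did not pass the test. Of the 10 genes, 5 passed limma's test towards mesenchyme (adjusted p under 0.05 over all genes) and 0 towards urothelium, where none had an unadjusted p under 0.05 either. Among all genes 8.99% passed towards mesenchyme and 5.75% towards urothelium. The members' median log2 difference, mesenchyme minus urothelium, was 2.60, beside 0.11 over all genes. That median lies in a gap, since the 5 called chains had log2 differences of 3.66 to 5.28 and the others of −0.47 to 1.55. The arrays of the compartments were separate for 5 members with mesenchyme higher and for 0 with urothelium higher, beside 18.2% and 12% of all genes (30.2% in either direction). All log2 differences were taken after 45 was added to each signal, so those of dim genes come out too small.

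**Figure D1:**
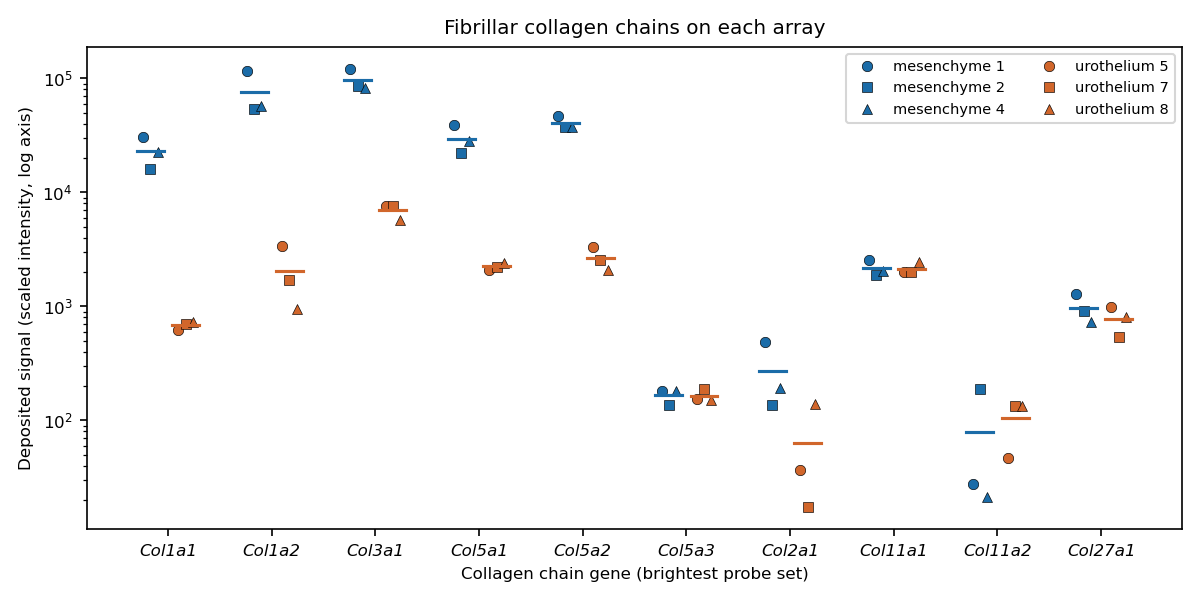
Deposited signal (scaled intensity, log axis) of the brightest probe set of each fibrillar collagen chain gene on the 3 mesenchyme arrays (blue) and the 3 urothelium arrays (orange), with bars at the group means. The compartments are apart for Col1a1, Col1a2, Col3a1, Col5a1 and Col5a2 and overlap for the other 5 genes.

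Col1a1, the gene of the main type I chain, had signals of 30563, 15951 and 22537 on mesenchyme 1, 2 and 4, against 627, 695 and 723 on urothelium 5, 7 and 8. Every mesenchyme array lay far above every urothelium array. The log2 difference was 4.94 ± 0.30 (SE; adjusted p = 3.25e-06), a 30.7-fold difference and the 50th largest towards mesenchyme among all genes. Col1a2, which encodes its partner chain, had 116849.6, 53619 and 56875 in mesenchyme and 3418, 1702 and 956 in urothelium. The compartments were as separate, with mesenchyme 1 and urothelium 5 the highest arrays of their groups. The log2 difference was 5.28 ± 0.45 (adjusted p = 2.33e-05), the largest of the family by brightest probe sets and the 29th largest of all genes. Another Col1a2 probe set of like mean log2 signal gave 4.87 ± 0.30, below the 4.94 of Col1a1. As the mean of each gene's probe sets, Col1a2 stood at 3.71, above Col5a1 (2.58). By that measure Col1a1 (4.49), Col3a1 (4.51) and Col5a2 (4.08) were larger.

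Col3a1, whose chain forms type III collagen, gave 121241.5, 86112 and 83239.95 on the mesenchyme arrays and 7657, 7663 and 5780.4 on the urothelium arrays. The groups did not overlap, and mesenchyme 1 was again the highest array. The difference was 3.77 ± 0.27 on the log2 scale (adjusted p = 7.19e-06), or 13.6-fold. The values on mesenchyme 2 and 4 are the highest of any probe set on those arrays, and no saturation flag was used here.

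The type V genes split. Col5a1, the chain found in every common form of type V collagen, had 38692, 22229 and 28141 in mesenchyme, against 2106, 2228 and 2426 in urothelium. Col5a2 had 46369, 37546 and 37621 in mesenchyme, against 3351, 2573 and 2081 in urothelium. For both genes the compartments were separate, and the log2 differences were close, 3.66 ± 0.27 for Col5a1 and 3.92 ± 0.27 for Col5a2 (adjusted p = 1.00e-05 and 5.61e-06). Col5a3, a chain of more restricted tissue range, had 182, 136 and 182 in mesenchyme and 155, 187 and 151 in urothelium. These values interleave. Its log2 difference was 0.01 ± 0.38 (adjusted p = 0.993), with a 95% interval of −0.83 to 0.85, and its sign turned under quantile normalization and under median centring.

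Col2a1, the gene of the cartilage collagen type II, had 489, 136 and 194 in mesenchyme and 36.4, 17.3 and 138 in urothelium. The groups touch, since urothelium 8 lay just above mesenchyme 2. The log2 difference of 1.55 ± 0.54 did not pass the test (adjusted p = 0.08995; 95% interval 0.35 to 2.74). It passed without urothelium 8 (2.00, adjusted p = 0.0443) and with array weights (1.52, adjusted p = 0.0125), and not in any of the other 14 alternatives that gave it a value. Over all its alternatives the adjusted p lay between 0.0125 and 0.329.

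Col11a1, whose chain starts the fibrils of cartilage, had 2554, 1868 and 2049 in mesenchyme, against 1987, 2002 and 2453 in urothelium. The arrays of the compartments lie in one range. The log2 difference was 0.0010 ± 0.28 (adjusted p = 0.999), its 95% interval was −0.63 to 0.63, and its sign turned under quantile normalization and median centring. Col11a2, the partner chain, had 27.8, 187 and 21.3 in mesenchyme and 46.9, 134 and 135 in urothelium, all of them dim. Its difference was −0.47 ± 0.52 (adjusted p = 0.664), with an interval of −1.62 to 0.69. Col27a1, a shorter and more distant chain known from cartilage and embryonic tissues, had 1278, 914 and 725 in mesenchyme and 989, 534 and 807 in urothelium. It overlapped as well, at 0.31 ± 0.39 (adjusted p = 0.699; interval −0.54 to 1.17). Col5a3, Col2a1 and Col11a2 lay below the median gene in mean log2 signal, and without detection calls a dim probe set does not show that a gene is silent.

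Col24a1, a fibrillar chain gene that is not among the 10, had 1260.1, 278 and 264 in mesenchyme and 10.1, 44.9 and 88.6 in urothelium. Mesenchyme 1 stood far above the other mesenchyme arrays, and the groups did not overlap. Its log2 difference of 2.54 ± 0.61 passed the test (adjusted p = 0.0160), and did not pass it without urothelium 5 or without urothelium 7.

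The other probe sets of the members gave the same picture for the called chains and varied in size. When every probe set was tested by itself over 45037 probe sets, 10 of the 20 were higher in mesenchyme and 0 in urothelium, against 4.46% and 2.88% of all probe sets. At least 2 probe sets passed for each of the 5 called chains. The second probe set of Col3a1 gave 25154, 38925 and 43110.5 in mesenchyme and 1420.3, 992 and 466 in urothelium, a log2 difference of 5.24 ± 0.39, larger than that of the first. For Col5a1 the second probe set gave 3683, 7932 and 6481 against 1408, 1442 and 1092, a smaller log2 difference of 2.10 ± 0.34 (adjusted p = 0.00265).

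Among the called chains 2 probe sets fell short. Col1a2's dimmest had 265, 402 and 326 in mesenchyme and 95.8, 226 and 134 in urothelium, at 0.97 ± 0.46 (adjusted p = 0.311). Col5a1's dimmest had 48.2, 952 and 505 in mesenchyme, against 81.3, 50.4 and 25.04 in urothelium, at 1.97 ± 0.77 (adjusted p = 0.196). On mesenchyme 1 that probe set lay within the urothelial range.

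The second probe set of Col11a1 ran the other way. It gave 1601, 1119 and 999 in mesenchyme and 2262, 1760.1 and 1732 in urothelium, so the groups did not overlap and urothelium was the higher. That separation towards urothelium is found for 9.68% of all probe sets, and the log2 difference of −0.63 ± 0.31 did not pass the test (adjusted p = 0.341). It was the 1 member probe set of 20 with this pattern, while 11 were separate with mesenchyme higher, which 13.4% of all probe sets were.

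**Figure D2:**
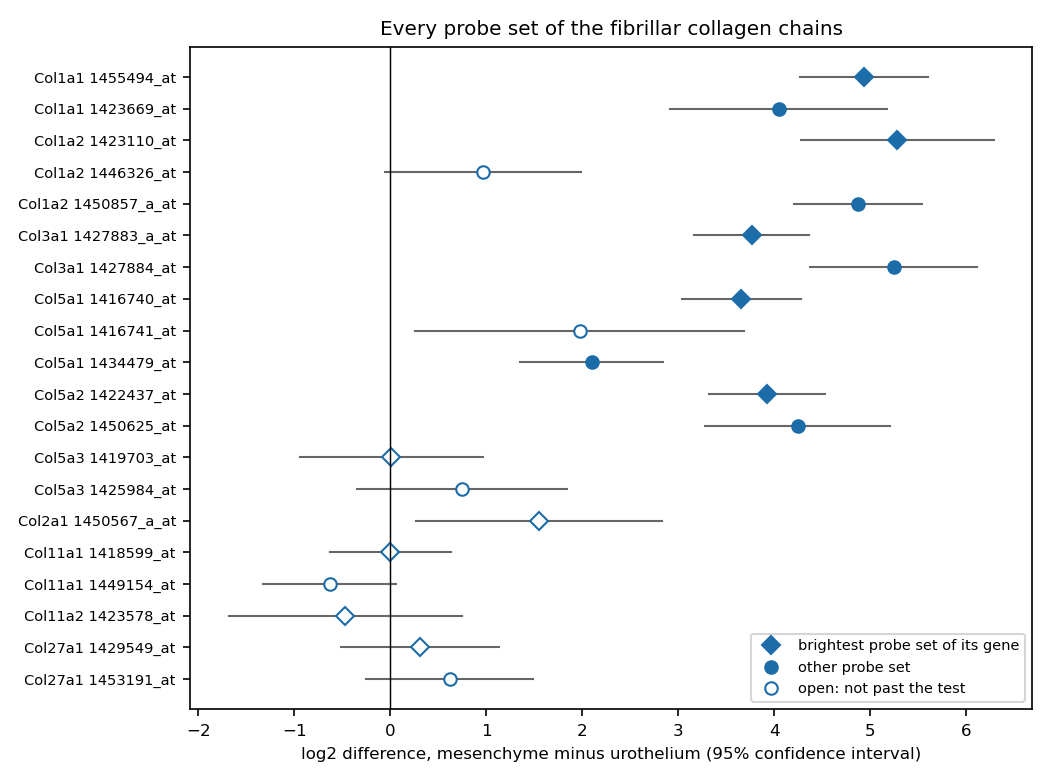
Log2 difference, mesenchyme minus urothelium, of each of the 20 probe sets of the fibrillar collagen chains, with its 95% confidence interval. Diamonds are the brightest probe set of a gene, circles the others, and filled symbols passed the test over all probe sets; the 10 filled ones belong to Col1a1, Col1a2, Col3a1, Col5a1 and Col5a2.

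Within the mesenchyme arrays, probe sets of one gene disagreed on where mesenchyme 1 stood. Of the 12 probe sets of the called chains, 7 were highest and 5 were lowest on mesenchyme 1, and 0 lay between the other arrays. The brightest probe set of each of the 5 genes was highest there, on average 0.43 above the mesenchyme mean on the log2 scale. Col3a1's first probe set was 0.35 above that mean and its second 0.47 below it (−0.47). Col5a1's 3 probe sets were at 0.42, −0.64 and −1.99. The mesenchymal markers averaged −0.10 on mesenchyme 1, −0.10 on mesenchyme 2 and 0.20 on mesenchyme 4. Of the mesenchyme arrays, mesenchyme 1 had the highest 3′ to 5′ ratio for actin and the lowest for Gapdh (11.5, against 14.2 and 15.7), and the part of RNA quality in this pattern was not tested. Without mesenchyme 1 and urothelium 5 together, the same count of 5 members was higher in mesenchyme.

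**Figure D3:**
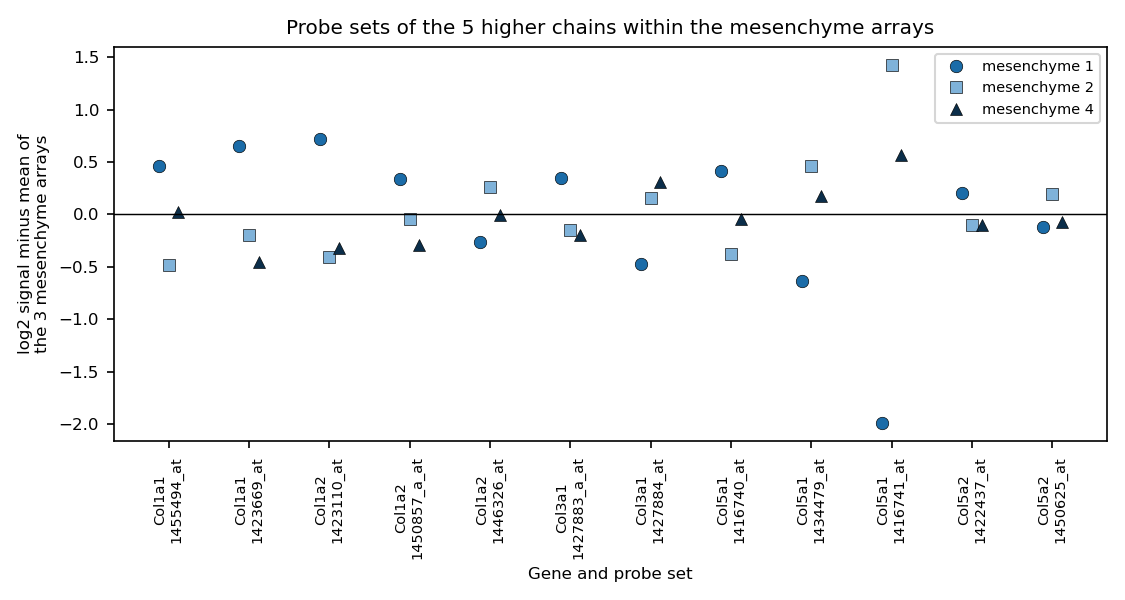
Log2 signal of the 12 probe sets of the 5 higher chains on each mesenchyme array, as the distance from the mean of the 3 mesenchyme arrays. Mesenchyme 1 is the highest array for 7 probe sets and the lowest for 5, and Col1a2, Col3a1, Col5a1 and Col5a2 each have probe sets of both kinds.

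The called chains also gave signal in urothelium. By the brightest probe set, their mean urothelial signal was 2.67% of the mesenchymal one for Col1a2, 2.96% for Col1a1, 6.59% for Col5a2, 7.26% for Col3a1 and 7.59% for Col5a1. The order depended on the probe set: by the second ones that passed, the share was 2.69% for Col3a1, 3.39% for Col1a2, 4.03% for Col1a1, 6.07% for Col5a2 and 21.8% for Col5a1. The median mesenchymal marker kept 3.67%, from 1.12% for Cdh11 to 23.1% for Thy1, which was named after its value was seen. The spread between urothelium arrays differed between probe sets of one chain. For Col1a1 it was 682 ± 49.5 by the brightest and 73.3 ± 70.0 by the other (SD, n = 3), and for Col1a2 it was 2025 ± 1262 by the brightest and 2119 ± 670.4 by the next. How much of this signal came from stromal RNA in the urothelial samples was not tested.

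Chains that build one fibril were then set against each other within each array, to ask whether partners differed equally between compartments. An exact two-sided permutation test over arrays was used for 6 pairs, in which 3 against 3 arrays cannot give a p below 0.1, so no pair could pass. The log2 ratio of Col1a1 to Col1a2 was −1.93, −1.75 and −1.33 in mesenchyme and −2.37, −1.24 and −0.38 in urothelium, and these overlap (difference −0.34, exact p = 0.6). The ratio of Col5a1 to Col5a2 overlapped too (difference −0.26, exact p = 0.4), as did that of Col11a1 to Col11a2 (0.47, exact p = 0.6). With the second probe set of Col5a1 the difference from Col5a2 was −1.82 (exact p = 0.1), and with the second of Col1a1 that from Col1a2 was −1.23 (exact p = 0.3), so partner ratios depended on the probe set.

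The ratio of Col3a1 to Col1a1 did not overlap, at 1.99, 2.43 and 1.88 in mesenchyme and 3.52, 3.38 and 2.92 in urothelium. Its difference of −1.17 (exact p = 0.1; 0.2 adjusted over the 6 pairs) means that the measured contrast was smaller for Col3a1 than for Col1a1. That order depended on the probe set: with the second one of Col3a1 the difference was 0.30. The ratio of Col5a3 to Col5a1 differed by −3.65 and that of Col2a1 to Col11a1 by 1.54, both without overlap (exact p = 0.1, adjusted 0.2). Col5a3 and Col11a1 themselves differed by 0.01 and 0.0010. These ratios therefore restate the differences of Col5a1 (3.66) and Col2a1 (1.55), the latter not past its own test. With the second probe set of Col5a1, Col5a3 over Col5a1 differed by −2.09.

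Genes of the collagen assembly line were higher in mesenchyme in large part, and none of those in the lists below passed towards urothelium unless stated. Of 19 measured genes of procollagen modification and folding 14 were higher in mesenchyme, with a median log2 difference of 1.97. P3h3, a member of the prolyl 3-hydroxylase family, averaged 2473 ± 644 in mesenchyme and 75.5 ± 59.0 in urothelium (SD, n = 3 each), a difference of 4.51 ± 0.50. Plod1, a lysyl hydroxylase, differed by 3.94 ± 0.60, and Creb3l1, a transcription factor of the endoplasmic reticulum that drives type I collagen in bone, by 3.09 ± 0.48. The adjusted p of the 3 genes lay between 0.000118 and 0.00115. Without mesenchyme 2 the count was 9.

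Serpinh1, the collagen chaperone HSP47, was chosen after its values were seen. It had 31642 ± 4300 in mesenchyme and 7496 ± 1532 in urothelium, 2.08 ± 0.26 on the log2 scale (adjusted p = 0.000261). P4hb, chosen likewise, is the subunit of prolyl 4-hydroxylase that also serves other proteins as a disulfide isomerase. It had 56025, 55995 and 52409 in mesenchyme and 73988, 57086 and 47075 in urothelium, with overlap and a difference of −0.09 ± 0.26 (adjusted p = 0.887).

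For propeptide removal, 3 of 7 measured genes were higher in mesenchyme (median 1.13). Pcolce, which speeds the cutting of the C-propeptide, had 13041 ± 909 in mesenchyme and 755 ± 158 in urothelium, a log2 difference of 4.05 ± 0.27 (adjusted p = 5.53e-06). Adamts3, a protease of the N-propeptide, differed by 3.45 ± 0.53 and the related Pcolce2, dim in both, by 1.59 ± 0.33 (adjusted p = 0.00106 and 0.00766). Bmp1, the C-proteinase itself, was named after its values were seen and did not pass (1.13 ± 0.45, adjusted p = 0.139).

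Cross-linking oxidases were higher in mesenchyme for 3 of 4 measured genes (median 3.90). Lox, the lysyl oxidase, had 20609, 23732 and 25517.5 in mesenchyme and 1102, 518 and 503 in urothelium. With no overlap, its log2 difference was 5.04 ± 0.33 (adjusted p = 5.06e-06). Loxl1 differed by 4.51 ± 0.49 and Loxl3 by 3.29 ± 0.37. The remaining gene, Loxl4, named after its value was seen, had 0.74 ± 0.40 (adjusted p = 0.291).

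Of 14 genes whose products sit on fibrils or set their width, 12 were higher in mesenchyme (median 4.47). The proteoglycan gene Bgn differed by 5.80 ± 0.50, Postn, the gene of periostin, by 5.70 ± 0.34 and Col14a1, a collagen of the fibril surface, by 5.32 ± 0.34. Their adjusted p ran over 3.19e-06 to 2.38e-05. Those that did not pass, named after their values were seen, were Fmod (−0.18 ± 0.38) and Tnxb (−0.0073 ± 0.49).

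Of 9 measured collagen receptor genes 3 were higher in mesenchyme (median 0.74). The receptor kinase gene Ddr2 had 15277, 10552 and 9600 in mesenchyme, against 100.3, 318 and 171 in urothelium, a log2 difference of 5.69 ± 0.39 (adjusted p = 6.00e-06). Mrc2, an uptake receptor for collagen, differed by 4.02 ± 0.34 and the integrin subunit gene Itga1 by 1.92 ± 0.45 (adjusted p = 2.33e-05 and 0.0150). The receptor count was 2 without mesenchyme 2, without urothelium 5 or without urothelium 8. Of 11 measured genes of collagen breakdown and its inhibitors, 6 were higher in mesenchyme (median 2.20). The 6 include the inhibitor genes Timp1 and Timp3, named after their values were seen. Those that did not pass, named likewise, were Mmp1a (−0.10), Mmp8 (−0.21), Mmp13 (−0.06), Mmp14 (1.22) and Timp2 (0.75). Mmp2, a gelatinase gene, had 31687 ± 1610 in mesenchyme and 1511 ± 529 in urothelium (4.41 ± 0.31), and Ctsk, the gene of the collagen-cutting cathepsin K, and Mmp9 differed by 3.72 ± 0.39 and 2.91 ± 0.39. The adjusted p of the 3 lay between 6.41e-06 and 0.000448.

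**Figure D4:**
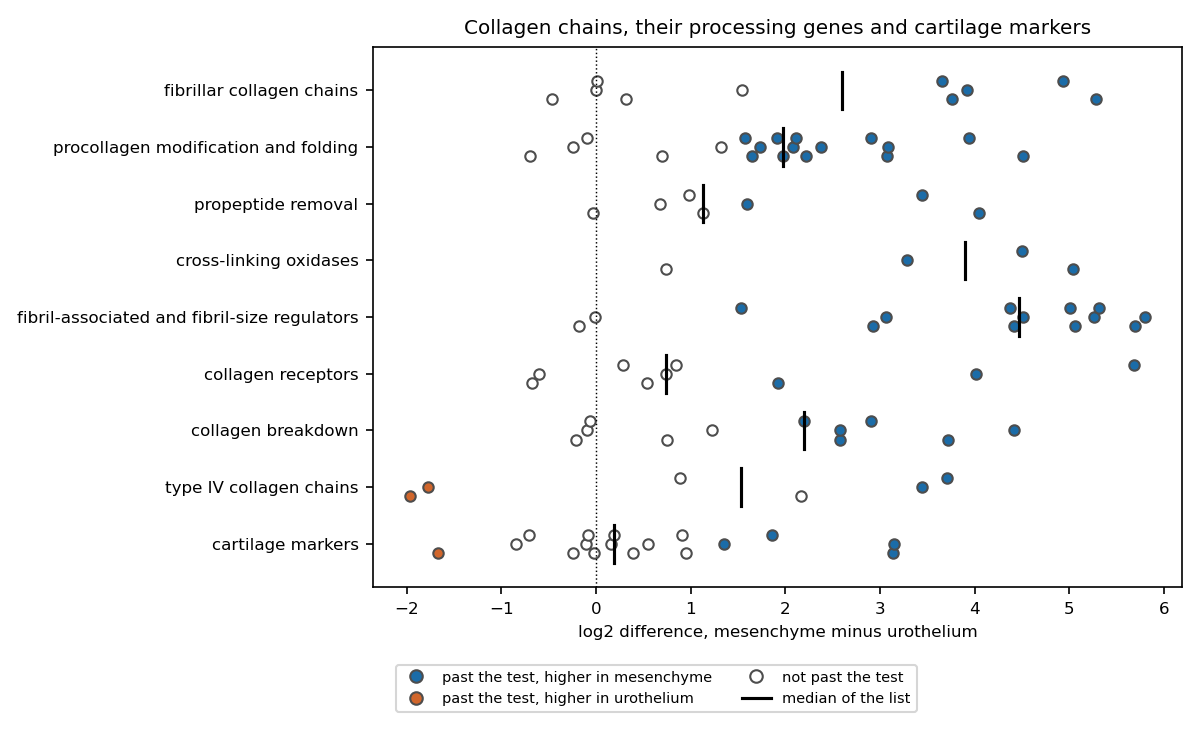
Log2 differences, mesenchyme minus urothelium, of the measured genes in 9 lists, 1 point a gene, filled where past the test (blue, higher in mesenchyme; orange, higher in urothelium), with a bar at each list's median. The called fibrillar chains lie at 3.66 to 5.28 and the others at −0.47 to 1.55, and the type IV chains lie on both sides of 0.

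Among the other collagens, the type IV chains of basement membranes had calls in both directions. Of 6 type IV genes 2 were higher in mesenchyme, Col4a2 (3.70 ± 0.37) and Col4a1 (3.44 ± 0.33), and 2 in urothelium, Col4a5 (−1.97 ± 0.30) and Col4a6 (−1.77 ± 0.31). Col4a6 was named after its value was seen. Of all 31 other collagen genes measured, 17 were higher in mesenchyme and 2 in urothelium, with a median of 2.28. Col14a1, Col6a1 (5.01 ± 0.37) and Col12a1 (4.52 ± 0.29) led these. The 25 that are not type IV chains had 15 calls towards mesenchyme and 0 towards urothelium, so a lack of urothelial calls is shared with the fibrillar chains. Whether the fibrillar family differs from the other collagens was not tested.

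Markers of cartilage, where Col2a1 and the type XI chains are best known, were mixed. Of 17 measured, 4 were higher in mesenchyme and 1 in urothelium (median 0.19). Summed signals were 7224 to 16539 in mesenchyme and 8782 to 11067 in urothelium. A large part of these sums was Hapln1 alone, named after its values were seen. It averaged 5300 in mesenchyme, with 9515 on mesenchyme 1, and 5530 in urothelium. Col9a3 and Col9a1, chains of the collagen that coats type II fibrils, differed by 3.15 ± 0.48 and 1.86 ± 0.42, and the matrilin gene Matn4 by 3.14 ± 0.53. Sox6, a partner of Sox9 in driving Col2a1, was the gene higher in urothelium (−1.67 ± 0.45, adjusted p = 0.0297). It was named after its value was seen and its call was lost when any 1 array other than mesenchyme 1 was left out. Without mesenchyme 4, or without urothelium 7, the mesenchymal count was 2. The defining cartilage gene Acan, also named after its values were seen, overlapped between the compartments. It gave 301, 130.1 and 81.8 in mesenchyme and 153, 183 and 169 in urothelium. Of 5 bone markers 0 passed limma's test, beside 1 with an unadjusted p under 0.05 towards mesenchyme and 0 towards urothelium; with array weights 1 passed. Sp7, Alpl and Ibsp, those of the highest mean signal, differed by 1.06, 0.14 and 0.38.

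Markers of other cell types were read as well. Smooth muscle markers were higher in mesenchyme for 7 of 9 measured genes, with summed signals of 77528 to 116956 in mesenchyme and 3699 to 4911 in urothelium. Endothelial markers were higher for 9 of 9, macrophage markers for 6 of 9 and mesothelial markers for 3 of 5. The 1 mesothelial marker higher in urothelium was Msln (−5.16 ± 0.48). Upk3b, a mesothelial marker named after its value was seen, overlapped (−0.18 ± 0.59). Over all genes the shares were 8.99% towards mesenchyme and 5.75% towards urothelium. Neural crest and neuronal markers had 0 of 6 higher in mesenchyme by limma (2 with an unadjusted p under 0.05, and 1 past the test without mesenchyme 2) and 2 in urothelium. Those 2 were Erbb3 (−5.10 ± 0.28) and Ret (−3.50 ± 0.47). The other 4, named after their values were seen, were Sox10 (−0.18), S100b (0.39), Tubb3 (1.12) and Elavl4 (1.82). The part of all these cell types in the collagen signals was not tested.

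The genes whose profile over the 6 arrays was nearest to the mean of Col1a1, Col1a2 and Col3a1 were sought among 9089 genes brighter than the median gene. Distance was the root mean square difference of gene-centred log2 signals. The nearest 5 were Nid2, a basement membrane linker (0.18), the hyaluronan synthase gene Has2 (0.196), the imprinted gene Mest (0.199), Rerg (0.20) and the caveolar coat gene Cavin2 (0.21). Nid2 had 9502, 4829.95 and 6187 in mesenchyme, against 252, 201 and 223 in urothelium. By the same measure Col1a1, Col1a2 and Col3a1, which make up that mean, lay at 0.30, 0.46 and 0.47 from it. Col5a2 lay at 0.41 and Col5a1 at 0.57, and the chains that did not pass lay at 1.69 to 2.72. A chain with little difference between compartments must lie far from that mean, so these distances in large part restate the log2 differences. Among all genes, 442 had a log2 difference above 3.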

How the data were processed

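Gene expression was measured on 6 Affymetrix MOE430 arrays, 3 of mesenchyme and 3 of urothelium, grouped by sample title. The deposited values are linear signal intensities per probe set made by the authors with GCOS, per the submitters' processing notes. The sources used here do not give its algorithm or settings. Every array has a 2% trimmed mean of 1500, by which the authors' scaling was recognised. Of 45101 probe sets, 64 controls were left out, 34945 carried 1 gene symbol, 932 several and 9160 none in GEO's platform annotation. An Entrez ID matched a current gene for 34741, with 0 symbols changed.

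From these values log2(signal + 45) was computed, 45 being the 25th percentile of all signals. The probe set with the highest mean represented each of 18193 genes, 9010 of which had several. limma 3.58.1 (R 4.3.3) fitted all genes on both groups with no filter and an intensity trend, with Benjamini-Hochberg adjustment. The procedure was tested on simulated data. Promoters are from RefSeq's GRCm38.p6 table. Alternatives changed the pseudocount (1 or 179), scaling, filter on dim genes, prior, array weights, actin covariate, choice of probe set and arrays.

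The members, lists and tests were chosen with earlier results of these data known. Besides all members and Col24a1, the text names up to 3 genes of a list, namely the called ones with the largest differences, or the brightest if fewer than 2 were called, and the 5 genes nearest in profile. Genes named beyond this rule are marked in the text as chosen after their values were seen. Listed genes with no single-symbol probe set were not analysed here.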

Additional observations from a re-analysis of the deposited data

How the results depend on the processing

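The 5 called chains kept their direction and their call in all 17 alternatives, with log2 differences of 4.49 to 5.18 for Col1a1, 3.71 to 5.75 for Col1a2, 3.56 to 4.51 for Col3a1, 2.58 to 3.85 for Col5a1 and 3.74 to 4.10 for Col5a2. Their number stayed at 5, or at 6 where Col2a1 passed, and leaving out 1 array gave 5 to 6 towards mesenchyme and 0 towards urothelium. The count over all genes towards mesenchyme was 991 among genes above the median gene and 3033 with array weights, and 1150 to 1703 with 1 array left out. Towards urothelium it was 2074 with array weights and 652 to 1061 with 1 array left out, the lowest without urothelium 7.

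The differences near 0 changed sign. That of Col5a3 was −0.18 under quantile normalization and under median centring, −0.12 with array weights, −0.073 without mesenchyme 1 and urothelium 5, and −0.043 to 0.12 with 1 array left out. For Col11a1 these values were −0.11, −0.18, −0.055, −0.18 and −0.12 to 0.10, and −0.31 as the mean of its probe sets. The median of all genes was 0.11 as deposited, 0.02 under quantile normalization and −0.08 after centring.

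The ratio of Col1a1 to Col1a2 differed by −0.86 to 0.13 with 1 array left out, 0.13 being without urothelium 8. Using second-brightest probe sets was chosen after seeing the data. It gave 0.066 for that ratio with the second Col1a2 probe set, −0.16 for Col11a1 over Col11a2 with the second of Col11a1, and 0.30 for Col3a1 over Col1a1 with the second of Col3a1. Without a change of sign it gave −1.23 for Col1a1 over Col1a2, −1.82 for Col5a1 over Col5a2 and −2.09 for Col5a3 over Col5a1, with the second Col1a1 or Col5a1 probe set. The cause was not tested.

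Among genes above the median gene, fewer genes were tested and the counts towards mesenchyme were 9 for modification and folding, 11 for other collagens, 4 for endothelial, 2 for macrophage, 1 for mesothelial and 0 for cartilage markers. Genes below the median gene were left out, so these counts do not separate genes not tested from calls lost. Col24a1, Col5a3, Col2a1 and Col11a2 lie below the median gene and have no value there. Dim probe sets limit what can be seen for these chains. No paired analysis was made, because the compartments share no replicate number and no label pairs their arrays. The 18S rRNA signal was 5290, 64661 and 24568 on mesenchyme 1, 2 and 4. On urothelium 5, 7 and 8 it was 3513, 21829 and 53137. By these and the actin ratios, mesenchyme 1 lay nearest urothelium 5, mesenchyme 2 nearest urothelium 8 and mesenchyme 4 nearest urothelium 7. The Gapdh ratios did not match mesenchyme 1 or 2 in this way. Whether matched arrays share a preparation was not tested.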
